A study of Homo sapiens with 4 samples.

Results

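Libraries 00 and 01 held the progeny of one plate of the first split, plate 0, after that plate had been divided again. They contributed 17578 of the 34557 cells of the series, 8241 in library 00 and 9337 in library 01, and each cell was assigned by the library name given beside its alleles. All cells were A549, a human lung adenocarcinoma line, transduced with Cas9 expressed from the viral SFFV promoter, with target sites placed behind GFP, and with a triple-sgRNA lentivirus whose guides carried mismatches. Puromycin selection, which removes cells without the guide vector, was applied to every plate between the splits. Cells were split on day 7 and on day 14 and collected on day 21, and no treatment separated the plates. In a library name such as 01, the leading digit was taken to give the day-7 plate and the trailing digit the day-14 plate, although the labels do not state this order. Each plate gave 1 library, so there was no replicate of a plate. Every test below took clones as the unit and measured the spread between clones of one culture. Of the 8 tests, 6 compared these 2 libraries, and 2 compared their difference with that between libraries 10 and 11, the pair from the other first-split plate.

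A lineage recorder of this kind writes heritable marks into the genome of living cells. Cas9 cuts a synthetic target site, repair leaves an insertion or deletion (an indel), and the indel is passed to all descendants, so that cells sharing an indel can be grouped as relatives. Each integrated copy carries a random integration barcode (intBC), and its indels are read from the RNA transcribed from it. A culture that is divided at a known time is expected to hold older marks on both sides and younger marks on one side.

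Clones were taken as the authors numbered them. Clones 1 to 7 and Clone 10 had at least 20 cells in each library and entered all comparisons, with 8229 cells of library 00 and 9322 of library 01. The remaining 27 cells belonged to Clone 8 (1 and 1 cells), Clone 11 (9 and 12 cells) and cells outside any numbered clone (2 and 2). Clone 9 had 0 cells in either library, with exact upper limits of 0.0448% of library 00 and 0.0395% of library 01. The 8 clones held 80 intBCs with 3 cut sites each, 240 characters in all. A state is an indel at a given cut site of a given intBC, and the ordered states of a cell form its character string, in which an intBC that was not listed counted as missing. The identity of the cells as A549 rests on the label, because the table holds no transcript other than the target site.

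Library 00 held 812480 UMIs (unique transcript tags) and 110566552 reads, and library 01 held 790152 UMIs and 102290927 reads. The median cell had 81 UMIs in library 00 and 70 in library 01, and 8 intBCs in each. The libraries shared 103 cell barcodes, 1.25% of those of library 00, and 12.6% of these pairs fell in the same clone, against 18.2% of all pairs of cells. Intervals given below are exact (Clopper-Pearson) 95% intervals, and both they and the limits for counts of 0 cover counting error only, since clonal cells are not independent draws.

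The states that distinguished the 2 libraries are named here by their intBC and by the junction left by repair, as listed in the allele table. Positions count bases along the target site sequence used for alignment, and the places of the integrated copies in the genome are not given in the sources used here. In a deletion, capitals mark the bases that follow the join, and in an insertion they mark the inserted bases. The first 5 were found almost only in library 00, the next 5 almost only in library 01, and the last 2 are the Clone 10 states whose frequency shifted most.
Clone 4, 12-base deletion at 110, intBC: tccggccattcccc
Clone 4, 12-base deletion at 110, junction: acgccGACAA
Clone 2, 7-base deletion at 163, intBC: ctgccagtcgtggc
Clone 2, 7-base deletion at 163, junction: taacgTGGTT
Clone 3, 5-base deletion at 162, intBC: tgctcgaatttgtc
Clone 3, 5-base deletion at 162, junction: ataacCCACG
Clone 3, 30-base deletion at 165, intBC: tcgtggccggcgta
Clone 3, 30-base deletion at 165, junction: acgatATGGA
Clone 3, 11-base deletion at 112, intBC: aatgtagattagag
Clone 3, 11-base deletion at 112, junction: gccgaACAAC
Clone 3, 11-base deletion at 107, intBC: gatatgacattctc
Clone 3, 11-base deletion at 107, junction: tgtacGCCTG
Clone 3, 1-base insertion at 167, intBC: aattactattcgga
Clone 3, 1-base insertion at 167, junction: gatatGgattg
Clone 3, 5-base insertion at 163, intBC: tcatttatcttagg
Clone 3, 5-base insertion at 163, junction: taacgAACATatgac
Clone 3, 15-base deletion at 220, intBC: catcattcgcaagt
Clone 3, 15-base deletion at 220, junction: aattcGTTCG
Clone 4, 53-base deletion at 112, intBC: tgcctcgaagcacg
Clone 4, 53-base deletion at 112, junction: gccgaATCTC
Clone 10, 54-base deletion at 113, intBC: gcattccccttatg
Clone 10, 54-base deletion at 113, junction: ccgaaCTCTG
Clone 10, 16-base deletion at 158, intBC: cggctccatctgtt
Clone 10, 16-base deletion at 158, junction: ggtcaTCATC

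The second split divided most clones in nearly the proportion of the whole plate. Library 01 held 53.1% of all plate 0 cells (52.4 to 53.9%). It held 53.0% of Clone 1 (2294 and 2584 cells in 00 and 01), 54.9% of Clone 2 (1244 and 1516), 52.0% of Clone 3 (2000 and 2168), 54.8% of Clone 4 (676 and 820), 55.4% of Clone 5 (722 and 896) and 53.8% of Clone 7 (588 and 684). The intervals of these 6 clones all included 53.1%. Clone 6, with 502 and 493 cells, had 49.5% of its cells in library 01 (46.4 to 52.7%). Clone 10, the smallest of the 8, had 203 and 161 cells, or 44.2% in library 01 (39.1 to 49.5%), and its share fell from 2.46% of library 00 to 1.72% of library 01, a ratio of 0.70. The intervals of Clones 6 and 10 lay below the value for all cells. With 1 library a side, these differences have no replicate and no test. The libraries also differed in depth: among cells with 50 or more UMIs, library 01 held 50.6% of all cells, 43.5% of Clone 6 and 42.7% of Clone 10, but also 44.5% of Clone 7 and 48.7% of Clone 1.

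**Figure D1:**
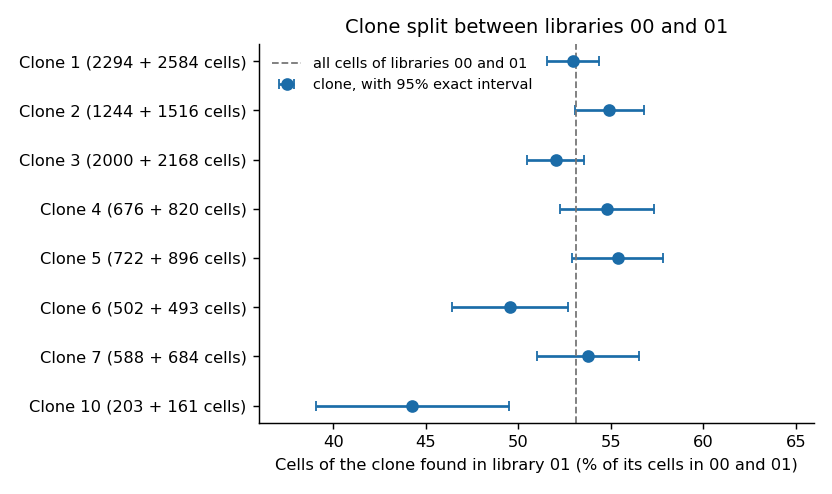
Percent of each clone's plate 0 cells that were found in library 01 (x axis) for the 8 clones (y axis, with cells in 00 and in 01); points are shares, bars exact 95% intervals and the dashed line the share of all cells, 53.1%. Only the intervals of Clone 6 (49.5%) and Clone 10 (44.2%) lay below the line without touching it.

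The level of editing was similar on both sides. The percent of detected characters that carried an indel ran from 5.94% in library 00 and 5.78% in library 01 for Clone 1 to 99.9% and 99.8% for Clone 7. Clone 2 had 38.7% and 39.5%, Clone 3 26.1% and 26.4%, Clone 4 75.7% and 75.8%, and Clone 5 99.6% and 99.5%. Clones 6 and 10 showed the widest differences, from 53.5% to 51.4% and from 44.5% to 42.8%. Across the 8 clones, library 01 differed from library 00 by -0.38 ± 1.00 percentage points (mean ± SD, n = 8 clones; exact two-sided sign-flip permutation test, p = 0.375; adjusted over the 8 tests, 0.455). The mean lay within the spread between clones.

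The same order of cut sites held in each library. In Clone 1 edits were found almost only at cut site 3, at 17.6% of detected sites in library 00 and 17.2% in library 01, against 0.0672% and 0.0716% at site 1. In Clone 2, site 2 was the most edited (59.5% and 60.1%), followed by site 1 (33.8% and 35.1%) and site 3 (22.7% and 23.1%). In Clone 10 the difference lay at site 1, with 42.8% in library 00 and 38.6% in library 01, while site 3 had 24.3% in each. The median cell of Clone 2 carried 13 edited characters in both libraries, and that of Clone 6 carried 6 in library 00 and 5 in library 01.

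Target site transcripts were counted more deeply in library 00. The mean number of UMIs per listed intBC was 10.1 in library 00 and 9.08 in library 01 for Clone 1, 9.30 and 8.30 for Clone 2, 11.8 and 9.99 for Clone 3, and 12.5 and 10.9 for Clone 4. It was 19.1 and 15.7 for Clone 5, 12.2 and 11.3 for Clone 6, 17.7 and 15.5 for Clone 7, and 12.7 and 11.5 for Clone 10. Library 01 was lower in 8 of 8 clones, by 0.18 ± 0.05 on the log2 scale (mean ± SD), a ratio of 0.88. The exact permutation p was 0.0078, the smallest that 8 clones allow, and 0.0625 after adjustment over the 8 tests. Between libraries 10 and 11, the second library was the higher in 7 of the same 8 clones. The number of reads per UMI was 136 in library 00 and 129 in library 01. Whether the difference lay in the plates or in the making of the libraries cannot be told apart, because each plate was 1 library.

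The lower UMI number extended over nearly all copies of the recorder. Of the 80 intBCs, 77 had fewer UMIs per listing cell in library 01 and 3 had more. The lowest ratio belonged to intBC accttgaagatatt of Clone 4, which fell by 0.40 on the log2 scale, from 17.1 to 13.0 UMIs. The next 4 all belonged to Clone 5. Of these, tagtgggcgttttc went from 18.5 to 14.8 UMIs and acctgaccttactt from 24.8 to 19.9. The 2 others, agatgtcccaccct and ggtttactgagtag, went from 23.1 to 18.7 and from 23.3 to 18.96. At the upper end, agcaacttcctagt and cggctccatctgtt of Clone 10 had 9.51 and 9.89 UMIs and 13.0 and 13.4 UMIs in libraries 00 and 01. With caacaccaacatca of Clone 2 (5.02 and 5.05 UMIs) they were the 3 intBCs above a ratio of 1. The ratios nearest below 1 were those of aggtatttcttggg of Clone 6 (12.9 and 12.8) and aataggccacaggt of Clone 1 (3.78 and 3.72).

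**Figure D2:**
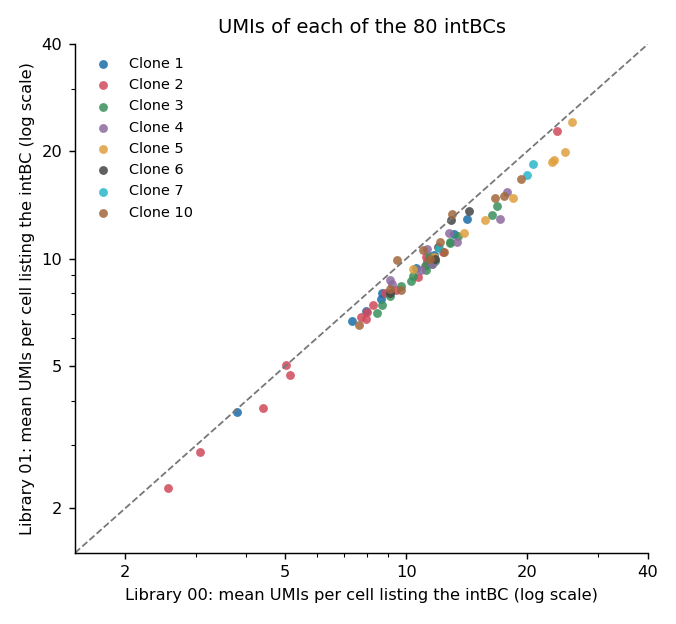
Mean UMIs per cell that lists the intBC in library 00 (x axis) and library 01 (y axis), both on log scales; each point is 1 of 80 intBCs, coloured by clone, and the dashed line marks equal values. Of the 80 points, 77 lie below the line, most of them by a similar distance.

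The share of a clone's cells in which an intBC was listed, its detection, changed little on average. It differed by -0.30 ± 0.99 percentage points in library 01 (mean ± SD, n = 8 clones; exact permutation p = 0.398, adjusted 0.455). Clone 1 had 79.2% in library 00 and 78.1% in library 01, Clone 2 66.7% and 65.1%, Clone 3 80.7% and 79.7%, and Clone 4 70.9% and 70.6%. Clone 5 had 68.9% and 68.7%, Clone 7 86.6% and 86.2%, and the share was higher in library 01 only in Clone 6 (70.9% and 72.1%) and Clone 10 (74.3% and 75.4%). Single intBCs moved further: the difference ran from -15.9 to 11.6 percentage points over the 80 intBCs, and the intervals of the libraries did not overlap for 9, of which 8 were lower and 1 higher in library 01. When each cell was thinned to 30 UMIs, leaving out 761 shallower cells of library 00 and 1084 of library 01, the mean difference was 0.06 percentage points, and library 01 was lower in 5 of 8 clones. Both means lay within the spread between clones.

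The widest changes in detection were in Clone 10. Its intBC ttgtccataacggt was listed in 72.4% of cells in library 00 (65.7 to 78.4%) and 56.5% in library 01 (48.5 to 64.3%). Its intBC tgtttgcatcgtgg moved the same way, from 73.4% to 66.5%, with overlapping intervals. In the opposite direction, cggctccatctgtt rose from 32.5% (26.1 to 39.4%) to 44.1% (36.3 to 52.1%) and agcaacttcctagt from 70.0% to 81.4%, and tctcggttgtcctg went from 78.8% to 83.9%. In Clone 2, tctccctttttgtt fell from 45.1% to 38.5% and atctgactagctct from 93.2% to 89.1%. In Clone 4, accttgaagatatt fell from 33.1% to 28.4%, while ttttaacatattac of Clone 6 went from 50.4% to 56.8% and tcatttatcttagg of Clone 3 from 55.0% to 59.9%. The intervals also overlapped for cggctccatctgtt, agcaacttcctagt, tctcggttgtcctg, accttgaagatatt and ttttaacatattac. Here "rose" and "fell" describe these 2 libraries, and no test over plates was possible.

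In Clone 10, the carriers of one state lacked 2 of these intBCs. The 16-base deletion at 158 in cggctccatctgtt was carried by 25 of 203 cells in library 00, or 12.3% (8.13 to 17.6%), and by 42 of 161 in library 01, or 26.1% (19.5 to 33.6%). Among its carriers, ttgtccataacggt was listed in 0 of 25 cells in library 00 and 0 of 42 in library 01. The exact upper limits were 13.7% and 8.41%. The intBC tgtttgcatcgtgg was listed in 0 of 25 and 1 of 42 carriers. In the clone's other cells, ttgtccataacggt was listed in 82.6% in library 00 and 76.5% in library 01, and tgtttgcatcgtgg in 83.7% and 89.1%. In these other cells ttgtccataacggt was thus also lower in library 01. The intBC agcaacttcctagt was listed in 22 of 25 and 41 of 42 carriers, and in 67.4% and 75.6% of the other cells. For tctcggttgtcctg the carriers had 76% and 73.8%, and the other cells 79.2% and 87.4%. Detection of cggctccatctgtt itself differed between the libraries. Among cells in which it was listed, the deletion was present in 37.9% in library 00 (26.2 to 50.7%) and 59.2% in library 01 (46.8 to 70.7%), and these intervals overlapped.

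The 54-base deletion at 113 in gcattccccttatg was found in other cells of Clone 10, and 0 cells were found with both it and the deletion at 158. It was found in 67 of 203 cells in library 00, or 33.0% (26.6 to 39.9%), and in 37 of 161 in library 01, or 23.0% (16.7 to 30.3%). Among these carriers, cggctccatctgtt was listed in only 8 of 67 and 6 of 37, so in most of them the deletion at 158 could not be seen. Among carriers of the deletion at 158, gcattccccttatg was listed in 15 of 25 and 24 of 42. Among cells in which gcattccccttatg was listed, the deletion was present in 78.8% in library 00 and 51.4% in library 01, the largest difference of any state named by the selection rule. The deletion joins cut sites 1 and 2, so that both characters hold it. Neither deletion was found in library 10 or 11, among 66 and 47 cells of Clone 10. Both were selected for their difference in frequency, and the intervals are given as a description.

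States with many carriers were found in both libraries, and states of a single library all had under 20 carriers. The 8 clones held 8686 states in plate 0. Of the 1156 states with exactly 2 carriers, 924 (79.9%) had both carriers in the same library. The share on one side dropped to 65.2% of 970 states with 3 or 4 carriers, 36.9% of 704 with 5 to 9, 12.0% of 474 with 10 to 19, and 0 of 812 with 20 or more. Such a drop follows in part from the numbers alone, since more carriers are less likely to fall in one library even when they are divided at random. Every state with at least 50 carriers, 427 in all, had between 24.5% and 80% of them in library 01, with a median of 54.3%.

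A state was called one-sided when at least 10 cells carried it and at least 90% of them were in 1 library. Of 1286 states with 10 or more carriers, 32 (2.49%) lay in library 00 and 71 (5.52%) in library 01. The values nearest to these limits were shares in library 01 of 10.0% inside and 11.1% outside for library 00, and of 90% inside and 89.7% outside for library 01. Library 01 also held 53.1% of all cells, and the counts of 32 and 71 were not adjusted for this. With alleles under 5 UMIs set to missing, the counts were 25 and 36. Clone 3 held 53 of the 103 one-sided states, 19 in library 00 and 34 in library 01, among 436 states of that size. Clone 2 had 4 and 17 of 356, Clone 4 had 2 and 12 of 186, and Clone 6 had 3 and 5 of 93. Clone 10 had 3 and 1 of 63, Clone 1 had 1 and 1 of 66, Clone 5 had 0 and 1 of 74, and Clone 7 had 0 of 12. The indels of the 103 one-sided states were listed in a median of 41 intBCs of the table, against 58 for the 1183 other states of that size. Of the 103, 48.5% also occurred in the same intBC in library 10 or 11, against 66.5% of the others. For the 57 states with no carrier at all on the other side the median was 14 intBCs and the share 33.3%, but clones differed, with medians of 8 in Clone 3 and 57.5 in Clone 2. These differences were not tested.

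**Figure D3:**
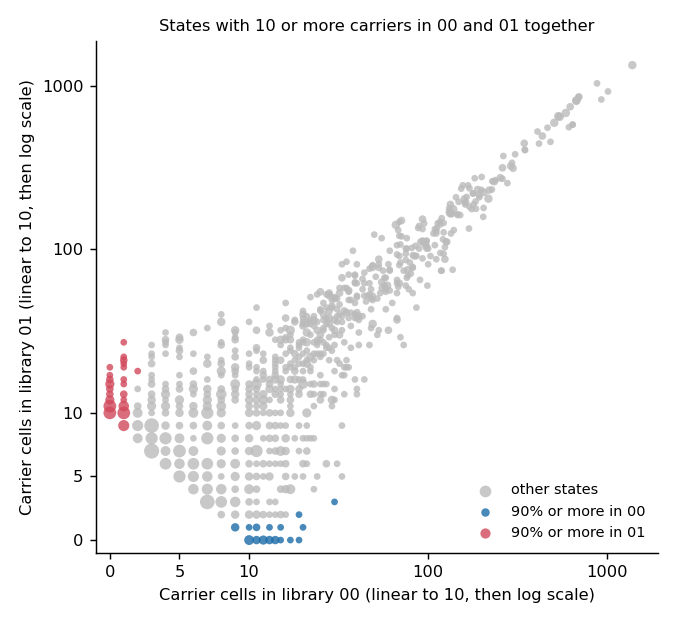
Carrier cells of each state in library 00 (x axis) and library 01 (y axis), on axes that are linear to 10 and logarithmic above, for the 1286 states with 10 or more carriers; larger points stand for several states. Blue points are the 32 states with 90% or more of carriers in 00 and red points the 71 in 01, and all of them lie below 50 carriers.

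When states of the same clone whose carriers largely overlapped were merged, the 103 states gave 82 groups of carriers, 27 on side 00 and 55 on side 01. They are called subclones below, a name that does not imply a single origin. The counts per side were likewise not adjusted for cell number. Of the 82, 41 had no carrier in libraries 10 and 11. Deletions marked 68 of them and insertions 13, and 1 was marked by a combined call. The subclones had 10 to 33 carriers, with a median of 12. Clone 3 gave 40, Clone 2 gave 16, Clone 4 gave 12, Clone 6 gave 7, Clone 10 gave 4, Clone 1 gave 2, Clone 5 gave 1 and Clone 7 gave 0. The carriers of 74 subclones shared an indel at another intBC, defined as the same state in at least 80% of carriers in which that intBC was listed. Some such states were common in the whole clone. Of the 82, 66 shared one that was present in under 50% of the clone's other cells, and 43 shared one present in under 10%. No such counts are given for carriers of other states, so sharing is not a trait particular to these subclones.

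The largest subclone of side 00 was that of Clone 4 with the 12-base deletion at 110 in tccggccattcccc, with 30 cells in library 00 and 3 in library 01. This was 5.29% of cells in which the intBC was listed in library 00 and 0.42% in library 01, and the same state had 3 and 13 carriers in libraries 10 and 11. In 25 of 25 of its carriers in which accttgaagatatt was listed, that copy held a 112-base deletion at 109, found in 16 of 432 other cells of the clone (3.70%). Its carriers differed at other cut sites. At cut site 2 of tccggccattcccc itself, 27 held a 54-base deletion at 167 and 6 held a 2-base deletion at 166. The next subclones on this side were both of Clone 2. Its 7-base deletion at 214 in cctttaacttaggg had 19 and 2 carriers. Of these, 20 of 20 also held the 19-base deletion at 155 in ggaaacgttttatc, against 6 of 1641 other cells (0.366%).

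The other Clone 2 subclone of side 00, with the 7-base deletion at 163 in ctgccagtcgtggc, had 20 and 1 carriers. It was not a uniform group: at cut site 2 of ttccattcttccgc, 12 carriers held a 45-base deletion at 112 and 9 held a 1-base insertion at 166. At the same cut site of tatacctttggaaa, 12 held a 2-base deletion and 9 an 18-base deletion. Carriers of the same 7-base deletion thus held different indels at the same cut sites of other copies. The 7-base deletion was listed in 31 intBCs of the table.

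Clone 3 supplied 6 of the 10 largest subclones on side 00 and 7 of the 10 on side 01. On side 00, the 5-base deletion at 162 in tgctcgaatttgtc had 19 and 0 carriers, was listed in this intBC alone, and was absent from libraries 10 and 11. Its carriers all held the 54-base deletion at 113 in catcattcgcaagt (19 of 19), a state of 30.4% of the clone's other cells. The 11-base deletion at 112 in aatgtagattagag had 15 and 1 carriers. At cgatctctaaggac, 12 of 14 of them held a 9-base insertion at 165 that 0 of 2794 other cells of the clone carried. The remaining Clone 3 subclones of side 00 were a 1-base insertion at 221 in catcattcgcaagt (15 and 0 carriers), a 5-base deletion at 220 in gtttcccggtttgt (14 and 0) and a 16-base deletion at 206 in tcgtggccggcgta (14 and 0). Of these, the insertion at 221 was carried by cells that shared no other indel by the 80% rule, and the same state had 6 carriers in library 11. The deletion at 206, listed in 80 intBCs, had 1 and 5 carriers in libraries 10 and 11, and the deletion at 220 had 0 and 1. Clone 1 had the 45-base deletion at 197 in acctttggccgcca, with 13 and 1 carriers, listed in no other intBC.

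One branch of Clone 3 held subclones of opposite sides. The 33-base deletion at 204 in tgctcgaatttgtc had 69 carriers in library 00 and 80 in library 01. The 11-base deletion at 165 in tctccgcttaagtg had 277 and 254. Of the subclones inside it, the 30-base deletion at 165 in tcgtggccggcgta had 17 carriers in library 00 and 0 in library 01, with the deletion at 204 in 16 of 16 and the deletion at 165 of tctccgcttaagtg in 17 of 17 of those with the intBC. On the other side, the 1-base insertion at 167 in aattactattcgga had 1 and 19 carriers, with the deletion at 204 in 20 of 20 and that of tctccgcttaagtg in 19 of 20. The 5-base insertion at 163 in tcatttatcttagg had 0 and 19 carriers and was nested further: 12 of 12 of its cells with aattactattcgga held the insertion at 167. The 9-base deletion at 162 in tcatttatcttagg had 0 and 17 carriers, with the deletion at 204 in 13 of 13. None of these 4 states, nor the deletion at 204, was found in libraries 10 and 11. The inner marks were selected as one-sided, and no state with 50 or more carriers was one-sided. The broader marks were thus bound to lie in both libraries, and the order of nesting is no separate result.

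On side 01, the largest subclone was the Clone 3 group with the 11-base deletion at 107 in gatatgacattctc, with 1 carrier in library 00 and 27 in library 01. The 1-base insertion at 113 in cgatctctaaggac followed in this clone with 1 and 20 carriers. In 21 of 21 of its cells, gatatgacattctc held a 1-base insertion at 220, against 56 of 3882 other cells (1.44%). Clone 4 gave the 53-base deletion at 112 in tgcctcgaagcacg, with 1 and 21 carriers, or 0.233% and 3.90% of cells with the intBC. This deletion was listed in 41 intBCs of the table, and its carriers here were not uniform. At cut site 1 of gatggacattgggg, 18 held a 50-base deletion at 113 and 4 held a 1-base insertion at 111. Clone 4 also gave the 2-base deletion at 166 in cgcgcgtccgggtc, with 2 and 18 carriers.

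Some one-sided states were carried by cells that differed in their other indels. The 15-base deletion at 220 in catcattcgcaagt had 0 and 16 carriers. At cut site 2 of tctccgcttaagtg, 11 of the 16 held a 2-base insertion at 167 and 5 held the 11-base deletion at 165. At cut site 2 of agatctctgctcga, 11 held a 54-base deletion at 167 and 5 a 19-base deletion at 155. The 1-base insertion at 220 in cctcgattgcacta of Clone 2, with 1 and 22 carriers, was listed in 82 intBCs of the table and had 16 and 17 carriers in libraries 10 and 11. The 4-base deletion at 166 in tcatttatcttagg, with 1 and 16 carriers, was listed in 57 intBCs, had 16 and 4 carriers in libraries 10 and 11, and its carriers shared no other indel. Over all 82 subclones, 21 had a cut site at which at least 3 carriers held one indel and at least 3 held a different one. Among the 20 named subclones, 8 had such a cut site. No such count is given for carriers of other states. A deletion across cut sites can remove an earlier mark. The 54-base deletion named at agatctctgctcga spanned cut sites, and the indels named at tctccgcttaagtg did not. Whether any of these differences arose within a single branch was not tested.

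**Figure D4:**
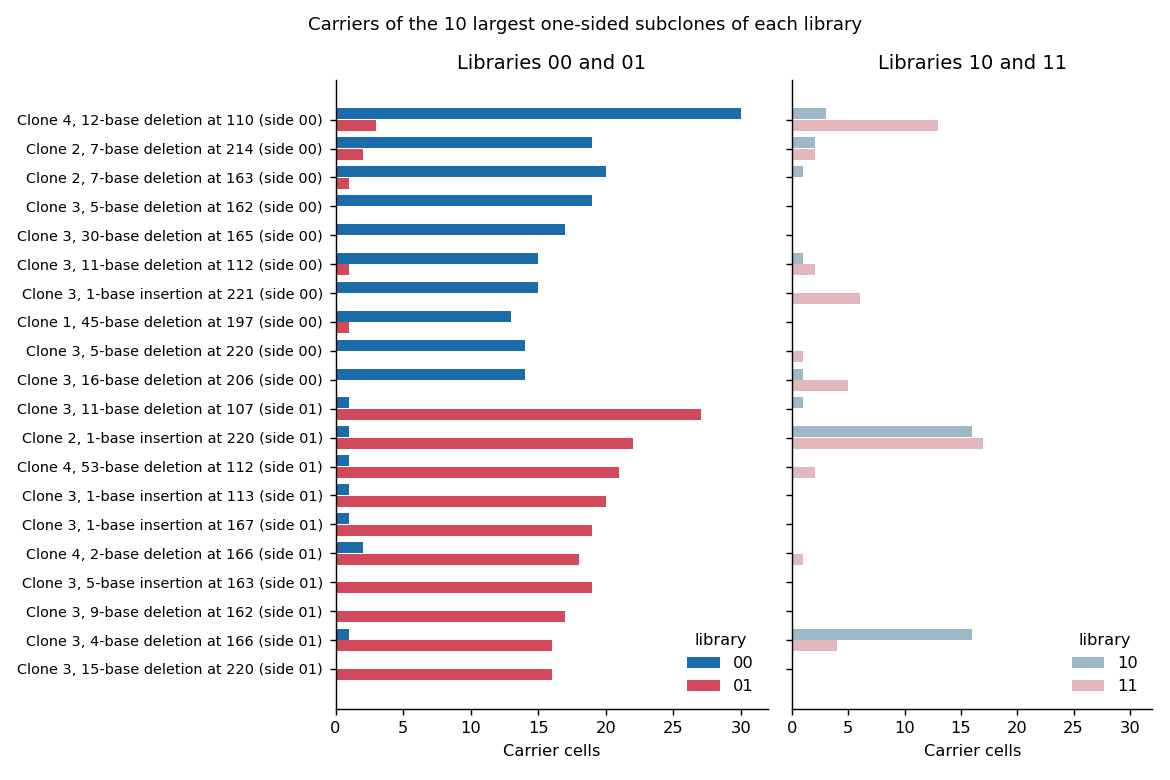
Carrier cells (x axis) of the 10 largest one-sided subclones of each library (y axis, named by clone, indel and its position), in libraries 00 and 01 (left) and 10 and 11 (right). The largest bars are 30 cells in 00 (Clone 4) and 27 in 01 (Clone 3), and the right panel shows carriers of the same state in the same intBC on the other first-split plate.

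The median UMIs of the carriers lay on either side of those of their clones. The median carrier of the Clone 4 subclone with the deletion at 110 had 67.5 UMIs, against 67.0 for Clone 4 in library 00. The median carrier of the Clone 3 subclone with the deletion at 107 had 96.0 UMIs, against 108 for Clone 3 in library 01, and that of the insertion at 167 had 135. When alleles with fewer than 5 UMIs were set to missing, the number of one-sided states went from 32 to 25 in library 00 and from 71 to 36 in library 01.

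Among states on both sides, the largest shifts in frequency within a clone, apart from Clone 10, were in Clones 4, 3 and 6. In Clone 4, the 6-base deletion at 164 in aatgcgctctgccc was found in 63.2% of cells with the intBC in library 00 (57.6 to 68.4%) and 46.7% in library 01 (41.7 to 51.9%). The 19-base deletion at 155 in accttgaagatatt of the same clone was found in 9.82% (6.26 to 14.5%) and 21.9% (16.8 to 27.8%), with 22 and 51 carriers and 0 in libraries 10 and 11. In Clone 3, the 31-base deletion at 149 in tctccgttagacat was found in 56.7% and 48.6%, and the 22-base deletion at 145 in the same intBC in 3.06% and 7.25%. In Clone 6, the 53-base deletion at 112 in ttttaacatattac had 4 carriers in library 00 and 28 in library 01, or 1.58% (0.432 to 4.00%) and 10.0% (6.75 to 14.1%), a ratio of 6.33. The 11-base deletion at 164 in that intBC went the opposite way, with 18.97% (14.3 to 24.4%) and 11.8% (8.25 to 16.2%), and these intervals overlapped.

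Smaller shifts were found in the other clones. In Clone 1, the 1-base deletion at 220 in attcaaaattacgc was found in 9.53% and 6.56% of cells with the intBC, and the 2-base deletion at 219 in tctttattctcgac in 1.76% and 4.10%, a ratio of 2.33. In Clone 2, the 2-base deletion at 219 in cctcgattgcacta was found in 8.48% and 3.49%, and the 18-base deletion at 161 in tatacctttggaaa in 15.8% and 20.1%, with overlapping intervals. In Clones 5 and 7 the intervals overlapped for the states that differed most. The 1-base deletion at 166 in gtccgttataaagg of Clone 5 was found in 67.4% and 61.9%, and the 3-base deletion at 111 there in 5.23% and 8.12%. The 2-base deletion at 219 in cctcatccttttac of Clone 7 was found in 59.9% and 54.8%, and the 8-base deletion at 213 in 28.1% and 29.4%. These states were chosen as the extremes of their clones, and the differences are not tests.

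Identical character strings were compared within and across the 2 libraries to ask whether close relatives stayed together. In Clone 2, 60 pairs of cells within a library shared a string and 15 pairs across, which per pair compared was 3.93 times as many within. In Clone 3 the numbers were 255 and 96 pairs, a ratio of 2.65. Clone 4 had a ratio of 1.27 (402 and 311 pairs) and Clone 6 of 1.24 (394 and 319). In Clone 1 (26119 and 25283 pairs), Clone 5 (31683 and 30176) and Clone 7 (90717 and 90316) the ratios were 1.03, 1.03 and 0.99. Clone 10 had 5 identical pairs within libraries and 0 across, and had no ratio. The mean of the log2 ratio was 0.59 ± 0.78 (SD, n = 7 clones, 6 of 7 above 0; exact permutation p = 0.031, adjusted 0.125), so that it did not pass after adjustment. The ratios furthest above 1 were in clones where few cells shared a string, and the mean was 0.35 without Clone 2.

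The same comparison was made for libraries 10 and 11. There Clone 2 had a ratio of 4.97, Clone 3 of 5.65, Clone 4 of 2.33 and Clone 6 of 1.41, each above its value in plate 0. The ratios were 1.03, 1.06 and 0.99 in Clones 1, 5 and 7. The log2 ratio of plate 0 minus that of plate 1 was -0.36 ± 0.45 (SD, n = 7 clones, lower in 5 of 7; exact permutation p = 0.0625, adjusted 0.141). The value fell by 1.09 on the log2 scale in Clone 3, the widest of the 7, and the difference did not pass the threshold.

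**Figure D5:**
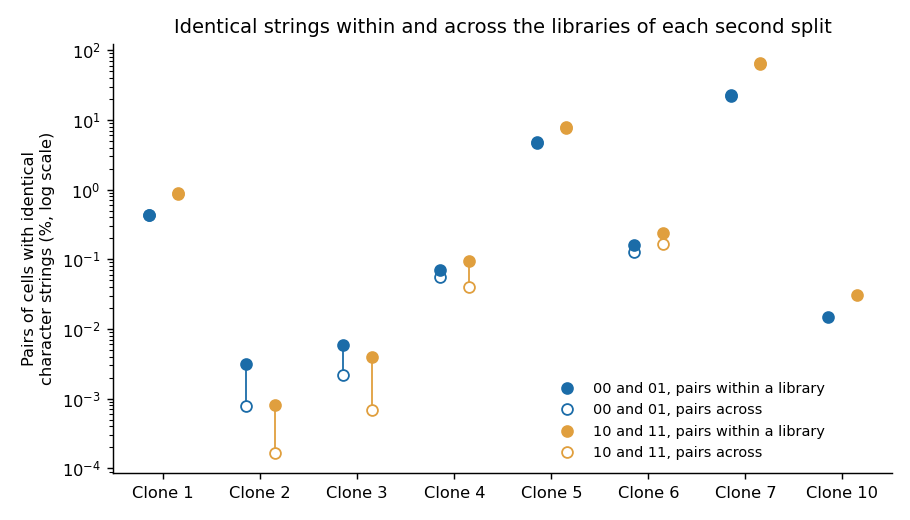
Percent of pairs of cells with identical character strings (y axis, log scale) for each clone (x axis), within a library (filled) and across libraries (open), for libraries 00 and 01 (blue) and 10 and 11 (orange). The symbols separate in Clones 2, 3, 4 and 6, nearly coincide in Clones 1, 5 and 7, and Clone 10 has no identical pair across, so no open symbol is drawn.

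The normalized allelic distance, which scores different indels as further apart than an indel and an uncut site, hardly separated the libraries. Pairs of cells across libraries were more distant than pairs within by 0.0009 ± 0.0024 (mean ± SD, n = 8 clones, 6 of 8 above 0; exact permutation p = 0.398, adjusted 0.455). Clone 10 had the widest gap, with a mean distance of 0.312 within and 0.318 across. In Clone 5, pairs within a library were the more distant (0.230 and 0.229). The gap was smaller than in plate 1 in 7 of 8 clones, by a mean of 0.0011, and this difference did not pass the threshold (exact permutation p = 0.0703, adjusted 0.141).

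The number of distinct strings did not differ beyond the spread between clones. At equal numbers of cells, the number of distinct strings per 100 cells was 51.8 in library 00 and 53.8 in library 01 for Clone 1, 98.2 and 98.3 for Clone 2, 95.3 and 96.6 for Clone 3, and 90.8 and 88.7 for Clone 4. It was 17.3 and 18.4 for Clone 5, 80.7 and 79.3 for Clone 6, 2.89 and 3.88 for Clone 7, and 98.8 in each for Clone 10. The mean difference of 0.24 ± 1.41 (SD, n = 8 clones) gave an exact permutation p of 0.688, and 0.688 after adjustment.

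Groups of cells with one and the same string repeated the pattern of the states. Of 1083 strings with at least 2 cells in plate 0, 266 were found in library 00 alone, 362 in library 01 alone and 455 in both. Of the 628 on one side, 4.78% were also found in library 10 or 11, against 30.1% of those on both sides. These shares were not adjusted for clone or string size. Clone 1 supplied 296 of the 455 strings on both sides, against 103 and 137 of those in 1 library. Clones 2, 3, 5 and 10 shared no string with libraries 10 and 11, and 499 of the 628 had only 2 cells. Among 95 strings of 10 or more cells, 2 had at least 90% of their cells in library 00 and 2 in library 01. Among the strings of at least 2 cells, the share found on one side was 23.5% for Clone 7, 44.8% for Clone 1 and 49.5% for Clone 5. It was 69.2% for Clone 6, 78.7% for Clone 4, 79.6% for Clone 2 and 82.8% for Clone 3. For strings of exactly 2 cells the clones were closer, with 70.6% in Clone 1, 80.9% in Clone 2, 82.8% in Clone 5, 85.2% in Clone 3 and 3 of 3 strings in Clone 7. In Clone 10 all 5 repeated strings lay on one side, each with 2 cells.

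Clone 5, in which nearly every site was edited, held the largest one-sided string. Its 17 cells were all in library 01, and it differed by a single character from a string with 36 cells in library 00 and 7 in library 01. At cut site 1 of gtccgttataaagg, the 17 cells held the 11-base deletion at 107 and the 43 cells an 11-base deletion at 112. A second pair differed at cut site 1 of agagagctaccgta, where a string with 11 and 1 cells held a 1-base insertion at 111 and one with 32 and 20 cells held a 5-base deletion at 115. The 3 further Clone 5 strings among the 10 largest one-sided groups had 9 cells each, all in library 01. The largest string of Clone 5 had 105 and 126 cells, and the next 2 had 72 and 65 and 57 and 73 cells. The remaining 5 of the 10 belonged to Clone 1. They had 0 and 11, 10 and 1, 0 and 9, 0 and 8, and 8 and 0 cells, and 4 of the 5 carried a single edited character at cut site 3, with the other copies uncut or not listed. The string with 8 and 0 cells had 5 and 2 cells in libraries 10 and 11, and that with 0 and 11 cells had 1 and 1. The strings with 0 and 11 and with 0 and 8 cells held the same edit, the 2-base deletion at 219 in tctttattctcgac, and differed only in whether agccaaatattgcg was listed.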

How the data were processed

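Target site amplicons from single-cell RNA libraries of A549 cells were measured in 4 libraries, 1 for each final plate, and libraries 00 and 01 are compared here. The authors deposited, for every allele, counts of UMIs and of reads that were not normalized. The submitters' notes name Cell Ranger 2.0.1. According to the study's methods, a UMI needed 2 reads and a cell 10 UMIs to be kept, and sequences were aligned with Emboss Water (gap open 20, extension 1). UMIs were collapsed, 1 allele was kept for each cell and intBC, clones were called, doublets were removed, and an intBC seen in less than 10% of a clone was dropped. A low-count allele can thus be missing rather than absent.

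Each cut site of each intBC was a character, with the indel and its flanking bases as the state and an unlisted intBC as missing. Clones with at least 20 cells a side were the units. Differences averaged over clones were assessed by enumerating all sign flips (exact permutation, two-sided), with Benjamini-Hochberg adjustment over the 8 tests and a threshold of 0.05. Distinct strings were rarefied to the smaller side. One-sided states had 10 or more carriers with at least 90% in 1 library, and were merged within a clone at a Jaccard index of carriers of at least 0.5. The rule for naming took all 8 clones, the 10 largest subclones of each side, the state with the largest frequency difference in each direction and clone, the 10 largest one-sided strings and the 5 extreme intBCs in each direction. The clones, lists and rules were chosen with earlier results of these data known. Scripts (Python 3.11.15 with scipy 1.17.1, numba 0.67.0, pandas 2.3.3 and numpy 2.4.6) were tested on simulated data. Alternatives were alleles of 5 or more UMIs, intBCs in at least 50% of a clone, cells of at least 50 UMIs, complete cells, thinned cells, other limits for one-sided states, and each clone left out. The number of columns of unmapped samples was 0.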

Additional observations from a re-analysis of the deposited data

How the results depend on the processing

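No paired analysis of replicate plates was possible because each plate gave 1 library, and the tests paired the 2 libraries clone by clone. Of the 8 tests, none passed the threshold of 0.05 after adjustment. When only alleles of 5 or more UMIs were kept and cells left without an allele were dropped (130 and 164 cells, an alternative chosen after seeing the data), 3 passed: UMIs per intBC (log2 ratio -0.14), detection (-2.88 percentage points) and the identical-pair ratio (0.40). No other alternative brought a test past it. With those cells kept they did not pass, at log2 ratios of -0.14 and 0.07 and a detection difference of -2.96. In that setting, cells of a clone left without an allele all had the same missing string and counted as identical pairs. The difference in distinct strings turned to -0.15 with 5 UMIs per allele, -0.033 with intBCs in at least 50% of cells, -0.65 with cells of 50 or more UMIs and -0.86 in complete cells. Without single clones it ran from -0.0214 (without Clone 1) to 0.57. Plate 0 minus plate 1 for the identical-pair ratio turned to 0.0265 and 0.0245 with 5 UMIs per allele, cells kept and dropped, and the detection difference to 0.0555 in thinned cells. The cause of these changes was not tested. Adding 0.5 pair, chosen after seeing the data, gave 0.94 for the identical-pair ratio over 8 clones (exact permutation p = 0.0156).

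In cells with 50 or more UMIs, library 01 held 48.7% of Clone 1, 51.5% of Clone 4, 43.5% of Clone 6 and 44.5% of Clone 7. At 80% of carriers, 67 of 1286 states were one-sided in library 00 and 128 in library 01. With at least 20 carriers, 3 and 7 of 812 states were one-sided. With 5 UMIs per allele, 25 and 36 of 1068 were. With indels of at most 5 intBCs, chosen after seeing the data, they numbered 9 and 20 of 205 states, larger shares than in the main setting. Strings of complete cells found in 1 library alone numbered 22 and 36 of 89, against 266 and 362 of 1083 in all cells. Library 01 had fewer UMIs per intBC in 8 of 8 clones. The mean detection difference was -0.30 percentage points in the main setting and 0.06 in cells thinned to 30 UMIs. Beyond this, the part of depth in the detection values was not tested. The minimum of 10 carriers was a choice, and states with fewer were only counted.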
